A study of Mus musculus with 12 samples.

Results

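The transcriptional response of control C22 cells to TGF-β1 was described across all expressed genes. C22 is a mouse club (Clara) cell line, cloned from H-2Kb-tsA58 transgenic mice, that grows under interferon-γ at a permissive temperature and differentiates when interferon-γ is withdrawn and the temperature is raised. The members were chosen by their labels and are the 6 of the 12 libraries of the study that carry the negative control, 3 of NC and 3 of NC + TGF-β1. The other 6 libraries, siPdcd5 and siPdcd5 + TGF-β1, come from cells transfected with siRNA against Pdcd5, since the study asked what Pdcd5 does in the TGF-β1 response of club cells. All 4 groups are the same clone and were differentiated and then deprived of serum for 2 h, and the treated groups received 20 ng/ml TGF-β1 for 24 h. The labels do not say whether replicates were separate cultures, so the p-values measure the spread between these libraries, which may be technical. As the cells are 1 clone in culture, no other cell type, lung tissue or second line stands behind these values.

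TGF-β1 is a secreted cytokine that binds a pair of serine/threonine kinase receptors, which phosphorylate SMAD2 and SMAD3. These bind SMAD4, enter the nucleus and switch genes on or off together with other transcription factors. BMPs, ligands of the same superfamily, act through SMAD1, SMAD5 and SMAD9, and Id genes are their best known targets. In lung epithelium TGF-β1 is known for slowing proliferation, for matrix production and for epithelial-mesenchymal transition (EMT), the change of epithelial cells towards a migratory, mesenchymal state.

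Counts on genes totalled 12925001 to 14936109 per library over the 6 libraries. CPM are the counts scaled to the library's total multiplied by its TMM factor, which ranged from 0.916 to 1.018. A level of 3 counts thus corresponds to 0.219 to 0.239 CPM. A level is given below as the CPM of replicates 1, 2 and 3 in that order, and a difference as log2 fold change ± SE of NC + TGF-β1 over NC with 3 libraries a group. The p-values of edgeR's quasi-likelihood F test were adjusted over the 12425 genes tested (Benjamini-Hochberg), and a gene called higher or lower has an adjusted p under 0.05. The first principal component of the 6 libraries, with 51.9% of the variance, separated the groups, while NC + TGF-β1 replicate 2 stood apart on the second, with 22.7% of the variance and a score of 37.7 against −12.8 and −22.2 for replicates 1 and 3. Pdcd5, the target of the siRNA, stood at 73.5, 65.8 and 65.1 CPM in NC, at 66.3, 69.7 and 67.6 CPM in NC + TGF-β1, and between 20.0 and 26.3 CPM in the libraries labelled siPdcd5. Where leaving out NC + TGF-β1 replicate 2 moved a list's count or median by over 1.5 times, the value without it is given too, as without treated replicate 2. Of the club cell markers, Scgb3a2, Cyp2f2 and Nkx2-1 held no count in any of the 6 libraries and Scgb1a1 at most 3, as did the epithelial marker Epcam, so the labelled cell type is not borne out by its defining genes. Krt8 and Krt18, keratins of simple epithelia, and Foxa2 and Aldh1a1 were expressed, and the fibroblast markers together took 3749 to 3985 CPM already in NC.

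TGF-β1 changed 1906 of the 12425 genes, 1065 of them higher (8.57% of the genes tested) and 841 lower (6.77%). The range of levels of the treated libraries did not overlap that of the untreated ones in 3673 genes (29.6%), among them 1889 of the 1906. An absolute log2 fold change of at least 1 was reached by 325 of the higher and 257 of the lower genes, and of at least 2 by 94 and 53. The median over all genes was 0.0050. The libraries are bulk RNA, so fewer cells of a kind and less RNA per cell cannot be told apart in any of these values. Without NC + TGF-β1 replicate 2, 2558 genes were called, 1706 of them shared with the 1906. With upper-quartile scaling 945 genes were called higher and 996 lower.

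**Figure D1:**
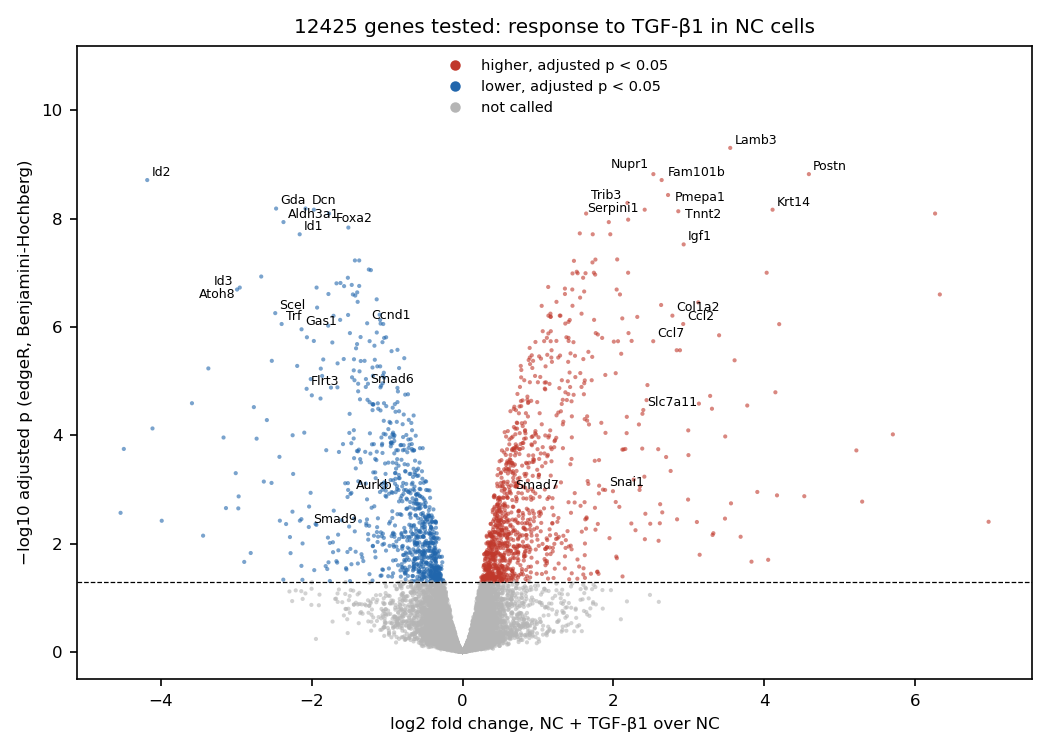
Each point is 1 of the 12425 genes, placed by its log2 fold change (NC + TGF-β1 over NC, horizontal) and by −log10 of its adjusted p (edgeR, vertical), with the dashed line at an adjusted p of 0.05. The 1065 genes called higher (red) and the 841 called lower (blue) reach similar adjusted p-values. Among the labelled genes Id2 lies furthest left at −4.18 and Postn furthest right at 4.59, while called genes without a label reach further in both directions.

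Among called genes whose log2 CPM averaged 3 or more, the largest rises included those of Postn, Krt14 and Lamb3, and of Pmepa1 and Nupr1, described below, and the largest falls included those of the Id genes. Postn, which encodes the matricellular protein periostin, stood at 3.65, 3.41 and 3.68 CPM in NC and at 74.8, 99.2 and 85.5 CPM in NC + TGF-β1 (4.59 ± 0.18, adjusted p = 1.5e-09). Krt14, a keratin typical of basal cells, rose from 10.7, 9.86 and 11.9 CPM to 183, 169 and 209.7 CPM (4.11 ± 0.20). Lamb3, the β chain of laminin-332, went from 9.81, 7.94 and 8.91 CPM to 111, 92.9 and 108 CPM (3.55 ± 0.12, adjusted p = 4.91e-10). For each of these genes every treated library lay far above every NC library. Tnnt2, a troponin of striated muscle thin filaments, Serpini1, a secreted serine protease inhibitor, and Fam101b, also called refilin B, which organises actin through filamin, had log2 fold changes of 2.86 ± 0.14, 2.41 ± 0.12 and 2.64 ± 0.11.

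Trf, the iron carrier transferrin, fell from 47.1, 42.6 and 43.1 CPM to 6.93, 6.58 and 11.6 CPM (−2.40 ± 0.20). Dcn, the small proteoglycan decorin, which can bind TGF-β, fell from 91.7, 94.3 and 101 CPM to 21.8, 22.1 and 23.9 CPM (−2.08 ± 0.10, adjusted p = 6.47e-09). Neither gene overlapped between the groups. Scel, which encodes the cornified envelope protein sciellin, Gda, guanine deaminase, Gas1, a membrane protein of growth arrest, and Flrt3, an adhesion protein, changed by −2.48 ± 0.19, −2.47 ± 0.12, −2.13 ± 0.18 and −2.07 ± 0.22.

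Genes known as targets of BMP signalling had the lowest median of the 40 gene lists described here. Of 9 members tested, 6 were called lower and 1 higher, with a median log2 fold change of −2.04 beside 0.0050 for all genes and 6.77% of all genes called lower. Id2 (chromosome 12, 25093799 to 25097140 of GRCm38 in GENCODE vM21, minus strand), a helix-loop-helix protein that holds basic helix-loop-helix factors off DNA, stood at 137, 124 and 133 CPM in NC and at 6.45, 9.19 and 6.07 CPM in NC + TGF-β1. The group means were 131 ± 7.12 and 7.24 ± 1.71 CPM (SD, n = 3), 18.1-fold lower by the fit (−4.18 ± 0.17, adjusted p = 1.93e-09). Its relatives Id3 and Id1 fell from 237, 256 and 251 CPM to 24.8, 43.1 and 25.8 CPM (−2.99 ± 0.21) and from 112, 114 and 133 CPM to 30.8, 26.9 and 22.7 CPM (−2.16 ± 0.12). Atoh8, a basic helix-loop-helix factor, fell from 73.8, 68.3 and 81.9 CPM to 10.03, 6.58 and 12.3 CPM (−2.95 ± 0.20). The 3 Id genes and Atoh8 thus had no treated library near an untreated one.

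Smad9, a SMAD activated by BMP receptors, and Smad6, the SMAD that inhibits them, also fell. Smad9, on few counts, went from 1.52, 1.85 and 1.38 CPM to 0.557, 0.299 and 0.292 CPM (−2.04 ± 0.44, adjusted p = 0.00492), and Smad6 from 15.4, 18.2 and 16.6 CPM to 6.37, 7.25 and 7.02 CPM (−1.28 ± 0.14, adjusted p = 1.28e-05). Smad7, the inhibitory SMAD of the TGF-β receptor, was the member called higher, with 15.9, 14.2 and 13.7 CPM in NC and 23.6, 24.1 and 20.8 CPM in NC + TGF-β1 (0.64 ± 0.11, adjusted p = 0.00118). The inhibitory SMADs therefore moved in opposite directions.

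**Figure D2:**
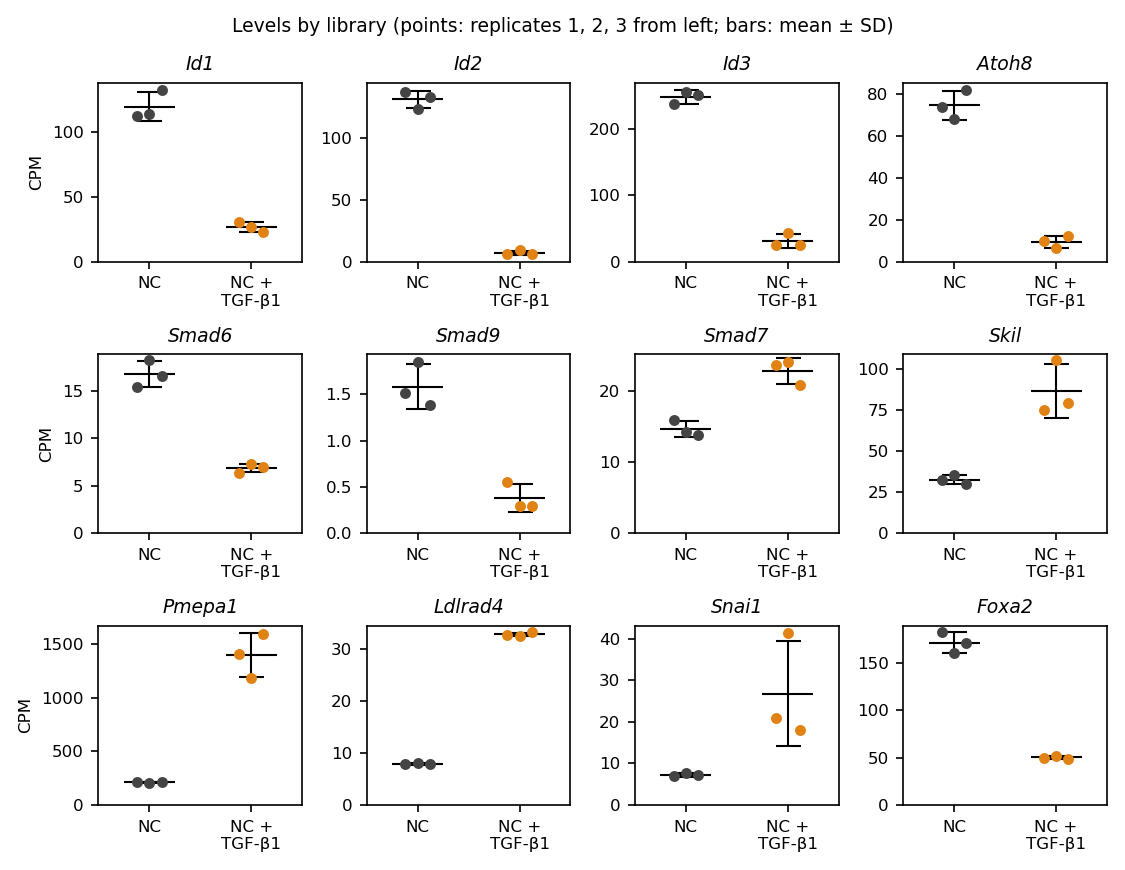
Levels (CPM, linear axes from 0) of 12 genes of the BMP and TGF-β pathways and of EMT and airway factors, in NC (grey) and NC + TGF-β1 (orange), with points for replicates 1, 2 and 3 from left and bars for mean ± SD (n = 3). Id1, Id2, Id3, Atoh8, Smad6, Smad9 and Foxa2 lie lower in every treated library, while Smad7, Skil, Pmepa1, Ldlrad4 and Snai1 lie higher, with Snai1 highest in replicate 2.

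The promoter of Id2 is shown because the gene had the largest fall among genes whose log2 CPM averaged 3 or more. It is given as the 250 bases before the transcript start in RefSeq, which lies within the GENCODE span (GRCm38.p6, chr12:25096093-25096342, minus strand, 5′ to 3′), with the single match to GGCGCC, a GC-rich element that SMADs of the BMP branch can bind, in capitals. The letters were searched on both strands, 16.9% of the 9943 tested genes with a promoter sequence hold them, and of the 5 lower members with a sequence Id2 and Smad9 do. The match does not overlap matches to the other 4 motifs searched shown or named here, which are TGATGNAA of ATF4 and C/EBP factors, TTTGAA of cell cycle genes, CAGAC, the SMAD box, and TGANTCA of AP-1.
Id2: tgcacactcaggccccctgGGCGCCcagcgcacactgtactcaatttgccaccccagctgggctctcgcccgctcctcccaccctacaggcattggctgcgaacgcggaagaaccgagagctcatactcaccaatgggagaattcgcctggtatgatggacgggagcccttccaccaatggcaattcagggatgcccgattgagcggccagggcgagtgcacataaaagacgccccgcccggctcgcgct

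Among BMP ligands, receptors and antagonists, 5 of 14 tested were called higher and 1 lower (median 0.16), and 6 and 2 without treated replicate 2. The lower one was Bmp4, a BMP ligand, at 509, 539.5 and 504 CPM in NC and 160.3, 191 and 244 CPM in NC + TGF-β1 (−1.38 ± 0.15, adjusted p = 1.53e-05). Gdf15, a stress-responsive ligand of the superfamily, rose from 1.82, 1.85 and 3.07 CPM to 9.47, 5.16 and 12.3 CPM (1.99 ± 0.35). The receptor Bmpr2 and the secreted protease Htra1, which can block BMP ligands, rose by 0.68 ± 0.10 and 0.89 ± 0.08, while Bmpr1a had −0.09 ± 0.16 (adjusted p = 0.791). In GENCODE vM21, exons of Bmp4 overlap exons of a gene on the other strand, and as counting by strand is not stated, reads of such pairs cannot be told apart. The same holds for Gas1, Ldlrad4, Nedd4l, Tgfb3, Zeb1, Runx1, Foxq1, Gata6, Cebpd, Jun, Junb, Ahr, Nr2f2, Thra, Dbp, Bhlhe40, Lrig1, Dusp1, Wnt5a, Fzd5, Notch1, Ctgf, Pdgfa, Pdgfc and Cxcl16. It holds too for Slc2a1, Pdha1, Cyp51, Ddit3, Shmt1, Shmt2, Cyp2s1, Ccnd1, Ccnd2, Nusap1, Gadd45a, Bcl2 and Krt8, and Trf, Acsl3, Ephx1 and Rpa1 overlap a gene on the same strand.

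Negative regulators of TGF-β signalling made up most of the feedback list that rose. Of 19 SMADs and feedback genes tested, 8 were called higher and 1 lower (median 0.13). Pmepa1 (chromosome 2, 173224458 to 173276533, minus strand), a membrane protein that keeps SMAD2 and SMAD3 from the receptor, went from 216, 208 and 211 CPM to 1405, 1188 and 1599 CPM (2.72 ± 0.12, adjusted p = 3.64e-09). Ldlrad4, which is related to Pmepa1 and acts alike, went from 7.83, 8.08 and 7.83 CPM to 32.6, 32.6 and 33.2 CPM (2.05 ± 0.12). Skil, which encodes the SMAD co-repressor SnoN, went from 32.2, 35.8 and 30.1 CPM to 75.003, 105 and 79.2 CPM (1.40 ± 0.16). No treated library of these 3 genes reached down to NC. Smurf1, a ubiquitin ligase for SMADs and receptors, rose by 0.71 ± 0.10, and Nedd4l, a ubiquitin ligase that clears activated SMAD2 and SMAD3, was the gene called lower (−0.59 ± 0.11, adjusted p = 0.00119).

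Tgif1, a co-repressor, had 45.5, 86.6 and 44.2 CPM in NC + TGF-β1 against 31.6, 34.4 and 34.4 CPM in NC. Its log2 fold change was 0.81 ± 0.22 (adjusted p = 0.0204), but 0.42 without NC + TGF-β1 replicate 2 (adjusted p = 0.0433), and its adjusted p was between 0.0625 and 0.0803 without any 1 of the 3 NC libraries. With 1 library left out, the number of higher members was 5 without NC + TGF-β1 replicate 1 and 5 without each NC library. The receptor-activated Smad2 (−0.07 ± 0.10) and Smad3 (0.13 ± 0.09) and the shared Smad4 (−0.14 ± 0.10) did not pass the test (adjusted p = 0.727, 0.387 and 0.38).

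Ligands, receptors and binding proteins of the TGF-β and activin branch were called higher in 7 of 20 members tested and lower in 1 (median 0.28). Without treated replicate 2 the counts were 8 and 2 (median 0.14). Inhba, the subunit of activin A, went from 42.4, 48.3 and 45.3 CPM to 173, 172 and 215 CPM (2.04 ± 0.14). Fstl1, a secreted follistatin-like glycoprotein, went from 449, 459 and 471 CPM to 1632, 1688 and 1966 CPM (1.94 ± 0.10, adjusted p = 1.15e-08). Both were about as high in replicate 2 as in the other treated libraries. Tgfb3, a TGF-β ligand, was the member called lower (51.9, 55.9 and 57.4 CPM in NC, 25.9, 33.5 and 25.1 CPM in NC + TGF-β1, −0.97 ± 0.12). Tgfb2 (0.05 ± 0.10), Tgfbr1 (0.17 ± 0.19) and Tgfbr2 (0.25 ± 0.15) did not pass the test (adjusted p = 0.833, 0.644 and 0.311).

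EMT transcription factors split. Of 20 tested, 8 were called higher and 4 lower, with a median of 0.16 (0.24 without treated replicate 2). Snai1, the zinc finger repressor Snail, stood at 6.92, 7.64 and 7.14 CPM in NC and at 21.02, 41.4 and 18.1 CPM in NC + TGF-β1 (1.89 ± 0.33, adjusted p = 0.00102), and the log2 fold change without replicate 2, its highest library, was 1.43 (adjusted p = 0.000681). Runx1, a runt-domain factor, and Zeb1, a zinc finger repressor of epithelial genes, rose by 1.67 ± 0.15 and 0.83 ± 0.11. Foxq1, a forkhead factor, rose by 0.92 ± 0.09.

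Snai2, the close relative of Snai1, instead fell, from 40.2, 39.1 and 37.3 CPM to 25.001, 30.7 and 25.2 CPM (−0.53 ± 0.11, adjusted p = 0.00299). The forkhead factor Foxc1 (−1.23 ± 0.16), the homeobox factor Prrx1 (−0.91 ± 0.12) and Sox9, a factor of lung progenitors (−0.87 ± 0.15), fell too. Twist1 had −0.65 ± 0.23 and Zeb2 0.17 ± 0.21 (adjusted p = 0.0759 and 0.683).

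Of the epithelial transcription factors and splicing regulators, 9 of 30 listed were expressed enough to be tested, and 3 of the 9 were called lower (median −0.17, −0.06 without treated replicate 2). Foxa2 (chromosome 2, 148042877 to 148046969), a forkhead factor of airway epithelium, fell from 183, 161 and 172 CPM to 49.7, 52.2 and 49.1 CPM (−1.77 ± 0.09, adjusted p = 8.02e-09), with no overlap. Gata6, a zinc finger factor of lung endoderm, fell from 85.2, 99.6 and 92.8 CPM to 31.1, 63.98 and 32.5 CPM (−1.12 ± 0.23), and had −1.54 without replicate 2. Cebpd, a C/EBP factor of acute responses, fell (−0.89 ± 0.16), while Klf5 (−0.17 ± 0.13) and Cebpa (0.10 ± 0.19) did not pass the test (adjusted p = 0.43 and 0.79).

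Immediate early and AP-1 factors had 8 of 25 members higher and 1 lower (median 0.34). There were 5 higher without NC replicate 1, and 8 higher and 2 lower with a median of 0.19 without treated replicate 2. Junb, a JUN-family subunit of AP-1, went from 82.7, 80.1 and 81.2 CPM to 174, 207 and 168 CPM (1.17 ± 0.09, adjusted p = 6.44e-07). Jun and Fosl2, further AP-1 subunits, rose by 0.66 ± 0.09 and 0.44 ± 0.09, and Btg2, an antiproliferative co-regulator, was the member called lower (−0.39 ± 0.09). Egr1 (−0.20 ± 0.23) and Myc (0.18 ± 0.32), which respond to growth factors early, did not pass the test 24 h after TGF-β1 (adjusted p = 0.642 and 0.792).

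The list of nuclear receptors and Ahr had 5 lower members of 19 (3 without NC replicate 1), all of them nuclear receptors, and 1 higher. Its median was −0.22, and −0.07 without treated replicate 2. Nr3c1, the glucocorticoid receptor, fell from 53.4, 58.2 and 49.7 CPM to 35.3, 42.5 and 30.8 CPM (−0.57 ± 0.13), and Nr2f2, an orphan receptor also called COUP-TFII, from 392, 384 and 444 CPM to 280.1, 204 and 293 CPM (−0.65 ± 0.15). Thra, a thyroid hormone receptor, fell (−0.60 ± 0.14). Ahr, the helix-loop-helix receptor for dioxin and related aromatic compounds, which is not a nuclear receptor, was the member called higher (0.53 ± 0.11, adjusted p = 0.00306).

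The circadian clock list had 3 members higher and 3 lower of 16 (1 lower without NC replicate 1), with a median of −0.15 (−0.08 without treated replicate 2). Dbp, a clock output activator that binds D-box elements, fell from 34.9, 38.3 and 38.7 CPM to 14.8, 13.98 and 12.5 CPM (−1.44 ± 0.14, adjusted p = 3.93e-06). Nfil3, which represses at the same elements, rose from 25.4, 21.1 and 21.8 CPM to 51.3, 46.2 and 57.9 CPM (1.18 ± 0.11, adjusted p = 4.38e-06), and Bhlhe40, a repressor of clock transcription, by 1.13 ± 0.21. The period genes Per1 (−0.21 ± 0.14) and Per2 (0.02 ± 0.37) did not pass the test (adjusted p = 0.35 and 0.985).

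**Figure D3:**
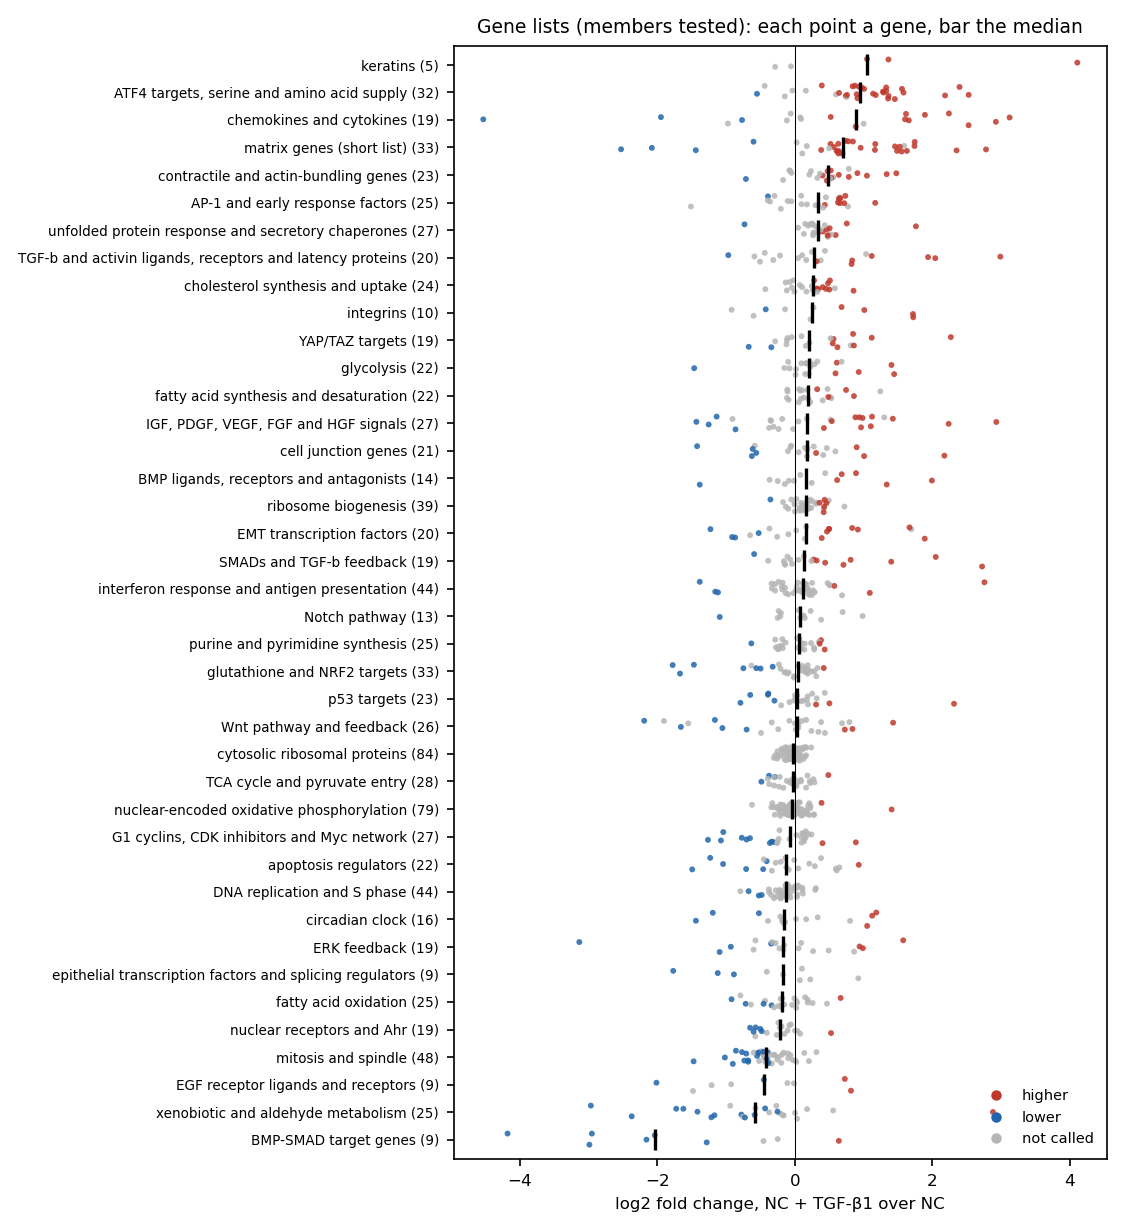
Each row is a gene list with its number of tested members in parentheses, each point a member's log2 fold change (NC + TGF-β1 over NC), red for called higher, blue for called lower and grey for not called, and each black bar the list's median. The BMP-SMAD targets lie far left with a median of −2.04, xenobiotic and mitosis genes left of 0, the keratins and the ATF4 list far right at 1.05 and 0.95, and the ribosomal proteins close around 0.

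Outside the SMAD pathway, feedback inhibitors of ERK signalling had 3 higher and 4 lower members of 19 (median −0.17). Lrig1, a membrane protein that promotes loss of EGF-family receptors, rose from 15.1, 16.5 and 13.6 CPM to 37.98, 57.3 and 39.8 CPM (1.58 ± 0.17), and the phosphatase Dusp14 from 16.2, 16.5 and 16.3 CPM to 27.9, 33.9 and 35.5 CPM (0.99 ± 0.11). Spry2, a Sprouty inhibitor of receptor tyrosine kinases, fell from 15.4, 15.5 and 18.96 CPM to 8.997, 7.18 and 7.16 CPM (−1.09 ± 0.19), and Dusp1, a phosphatase of p38 and JNK (−0.93 ± 0.18). Dusp6, the phosphatase most specific to ERK, had 32.8, 36.6 and 38.4 CPM in NC and 19.2, 34.1 and 17.8 CPM in NC + TGF-β1 (−0.60 ± 0.21, adjusted p = 0.0668), and −0.96 without replicate 2 (adjusted p = 0.000162). Of the EGF receptor ligands and receptors, 2 of 9 were higher and 2 lower (median −0.45), Egfr among the lower (−0.45 ± 0.09) and its ligand Hbegf among the higher (0.73 ± 0.16), and 1 was higher without NC replicate 1 or without NC replicate 3.

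Called genes of the Wnt pathway lay on both sides, while the only called gene of the Notch pathway fell. Of 26 Wnt genes, 3 were higher and 5 lower (3 without NC + TGF-β1 replicate 1 or NC replicate 3), with a median of 0.03, and −0.10 without treated replicate 2. Fzd5, a Frizzled receptor, fell from 17.1, 13.6 and 13.7 CPM to 4.22, 4.04 and 5.78 CPM (−1.66 ± 0.18), the ligand Wnt4 from 61.97, 58.8 and 56.3 CPM to 24.6, 28.5 and 25.95 CPM (−1.16 ± 0.11), and Sfrp4, a secreted Wnt antagonist (−2.19 ± 0.22). Wnt9a rose from 21.5, 22.8 and 19.96 CPM to 48.3, 79.2 and 45.5 CPM (1.43 ± 0.22), Wnt5a by 0.73 ± 0.15, and Porcn, the enzyme that attaches a lipid to Wnt ligands, by 0.84 ± 0.11. Axin2, a common target of β-catenin, stood at 0.380, 1.04 and 0.998 CPM and 0.717, 0.972 and 0.731 CPM and did not pass the test (0.00 ± 0.43, adjusted p = 0.999). Notch1 was the only called member of 13 Notch pathway genes and fell from 98.5, 89.97 and 88.1 CPM to 45.5, 41.04 and 43.1 CPM (−1.09 ± 0.09, adjusted p = 7.36e-07), while Hes1, a Notch target, had 0.38 ± 0.21 (adjusted p = 0.261). The Notch list had a median of 0.08, and without treated replicate 2 a median of −0.15 with 1 member higher.

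The list of IGF, PDGF, VEGF, FGF and HGF signals, with receptors and binding proteins, included some of the strongest changes in signalling genes. Of its 27 members tested, 11 were higher and 4 lower. The median of the list, 0.17, turned to −0.07 without NC + TGF-β1 replicate 2. Igf1 (chromosome 10, 87858265 to 87937042), insulin-like growth factor 1, rose from 5.93, 7.86 and 8.44 CPM to 54.5, 57.9 and 57.5 CPM (2.93 ± 0.17, adjusted p = 2.97e-08). Vegfa, the vascular growth factor, rose from 67.1, 79.5 and 66.5 CPM to 134, 176 and 148 CPM (1.11 ± 0.12), and the PDGF ligands Pdgfa and Pdgfc by 0.96 ± 0.13 and 1.12 ± 0.17. Met, the receptor of hepatocyte growth factor, fell from 500.0, 485 and 479 CPM to 232, 199 and 234 CPM (−1.14 ± 0.08, adjusted p = 3.07e-07). Fgf18, a ligand of lung development, and Igfbp6, which binds IGF-II, fell (−1.25 ± 0.13 and −1.43 ± 0.15). Ctgf, connective tissue growth factor, a target of YAP and TEAD, varied among treated libraries, with 36.3, 63.5 and 56.7 CPM in NC and 139.7, 410.4 and 204 CPM in NC + TGF-β1 (2.27 ± 0.38, and 1.72 without replicate 2). Of the 19 YAP and TAZ targets 7 were higher and 2 lower (median 0.21).

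Chemokines and cytokines had 10 of 19 members higher and 3 lower, with a median of 0.89. Ccl2 (chromosome 11, 82035571 to 82037453), which attracts monocytes, went from 12.9, 12.8 and 10.98 CPM to 67.5, 132 and 79.5 CPM (2.92 ± 0.24, adjusted p = 8.77e-07), and its neighbour in sequence and function Ccl7 from 10.2, 10.7 and 10.3 CPM to 45.3, 84.02 and 50.4 CPM (2.53 ± 0.22). Il1rl1, the receptor of interleukin-33, went from 1.90, 2.23 and 1.31 CPM to 11.9, 19.9 and 15.9 CPM (3.12 ± 0.23), and the chemokine Cxcl16 from 3.73, 3.56 and 3.92 CPM to 20.6, 12.9 and 19.5 CPM (2.24 ± 0.20). Ccl2 and Ccl7 were highest in replicate 2, and none of the 4 genes overlapped between the groups. Il18, an inflammasome cytokine, fell (−0.77 ± 0.12), and Casp1, the protease that matures it, fell from 55.1, 61.4 and 56.5 CPM to 22.2, 28.03 and 23.4 CPM (−1.23 ± 0.11). Leukocyte markers together stood at 8.68 to 12.4 CPM in NC and at 11.9 to 13.3 CPM in NC + TGF-β1.

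Of 44 interferon response and antigen presentation genes, 3 were higher and 3 lower (median 0.12), and 7 and 6 without NC + TGF-β1 replicate 2. These 6.82% higher and 6.82% lower lay near the shares of all genes tested, 8.57% and 6.77%. Among the called members, Ifit3 and Ifit2, antiviral proteins, fell (−1.38 ± 0.15 and −1.16 ± 0.17), and Ifi44 rose by 1.09 ± 0.19. The interferon regulatory factor Irf1 (−0.24 ± 0.15) and the class I heavy chain H2-K1 (0.12 ± 0.10) did not pass the test (adjusted p = 0.351 and 0.522).

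Among the metabolism lists described here, the largest share of called members was in genes that the stress factor ATF4 is known to drive. These genes supply amino acids and one-carbon units. The list was chosen with earlier results of these data known, so its rank is a description and not a test. Of 32 tested, 25 were called higher (8.57% of all genes were) and 1 lower, with a median of 0.95. Nupr1 (chromosome 7, 126623249 to 126630861, minus strand), a stress-induced nuclear protein, went from 114, 117 and 108 CPM to 679, 566 and 707 CPM (2.53 ± 0.10, adjusted p = 1.5e-09). Trib3, a pseudokinase, went from 17.3, 17.5 and 16.9 CPM to 80.1, 73.2 and 82.2 CPM (2.19 ± 0.10, adjusted p = 5.1e-09), and Slc7a11, the cystine-glutamate exchanger, from 2.59, 1.71 and 3.07 CPM to 12.6, 15.7 and 10.5 CPM (2.40 ± 0.29). In these 3 genes every treated library lay above every NC library.

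The enzymes of the list moved with them. Asns, asparagine synthetase, went from 56.6, 60.004 and 53.1 CPM to 119, 124 and 130.5 CPM (1.14 ± 0.09). Mthfd2 and Shmt2, which make one-carbon units in mitochondria, rose by 1.45 ± 0.10 and 0.93 ± 0.09, and Phgdh, the first enzyme of serine synthesis, by 0.39 ± 0.09. The transporter of large neutral amino acids Slc7a5 rose by 1.36 ± 0.15. Psat1, the next enzyme of serine synthesis, did not pass the test (−0.04 ± 0.11, adjusted p = 0.876), and Shmt1, the cytosolic partner of Shmt2, was the member called lower (−0.55 ± 0.15, adjusted p = 0.0225). Shmt1 was not called without NC + TGF-β1 replicate 2 or 3 or without NC replicate 1 or 3 (adjusted p between 0.0501 and 0.0989).

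Atf4 itself stood at 768, 737 and 751 CPM in NC and at 1411, 925 and 1700.2 CPM in NC + TGF-β1 (0.84 ± 0.19, adjusted p = 0.00696), lowest of the treated libraries in replicate 2. Ddit3, which encodes the factor CHOP, had 297, 179 and 375 CPM in NC + TGF-β1 against 184, 161 and 165 CPM in NC (0.74 ± 0.20, adjusted p = 0.0201). It was called without NC + TGF-β1 replicate 2 (0.98) and lost the call without NC + TGF-β1 replicate 1 or 3 or NC replicate 2 or 3, with adjusted p from 0.0627 to 0.0899. The median over the list against the mean of NC was 0.93, 1.11 and 1.01 in treated replicates 1, 2 and 3, with the highest value in the library that stands apart.

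Promoters of called ATF4-list genes are shown because the members rose together. They are the 250 bases before the RefSeq start (GRCm38.p6, 5′ to 3′ on the gene's strand) with matches to TGATGNAA, the composite element of ATF4 and C/EBP factors, in capitals as read on either strand. Of the 20 higher members with a sequence, 5 hold a match, namely Asns, Chac1, Slc7a11, Got1 and Nupr1, and of all 26 tested members 6 (23.1%) do, against 2.01% of the 9943 genes. The match in Asns begins 23 bases before the start, those in Slc7a11 66 and 47 bases before it, and that in Nupr1 110 bases before it, where it overlaps a match to CAGAC, the SMAD box. A match is a description of these letters and not evidence of binding. As the list was made of genes that ATF4 is known to drive, its share of matches is not an independent test. Asns lies at chr6:7693210-7693459, Slc7a11 at chr3:50443614-50443863 and Nupr1 at chr7:126625471-126625720, all on the minus strand.
Asns: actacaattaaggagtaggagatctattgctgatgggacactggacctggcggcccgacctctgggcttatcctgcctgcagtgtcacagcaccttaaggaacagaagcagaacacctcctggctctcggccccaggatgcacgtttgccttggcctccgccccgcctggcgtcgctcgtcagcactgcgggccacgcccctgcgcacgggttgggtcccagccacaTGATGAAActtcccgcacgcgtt
Slc7a11: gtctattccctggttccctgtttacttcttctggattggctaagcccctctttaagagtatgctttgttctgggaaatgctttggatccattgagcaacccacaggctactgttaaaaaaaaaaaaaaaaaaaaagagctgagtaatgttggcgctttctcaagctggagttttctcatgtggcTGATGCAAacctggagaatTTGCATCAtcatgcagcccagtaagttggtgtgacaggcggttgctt
Nupr1: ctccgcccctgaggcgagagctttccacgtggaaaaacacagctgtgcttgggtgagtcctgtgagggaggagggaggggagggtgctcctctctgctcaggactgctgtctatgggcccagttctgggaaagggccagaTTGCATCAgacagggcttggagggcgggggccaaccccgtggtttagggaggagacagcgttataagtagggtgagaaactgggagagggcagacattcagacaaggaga

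The unfolded protein response and secretory chaperones had 9 of 27 members higher and 1 lower (median 0.34). Creb3l1, an ER-membrane transcription factor of collagen-secreting cells, rose from 43.6, 48.3 and 49.7 CPM to 145, 174 and 160.4 CPM (1.76 ± 0.11, adjusted p = 5.66e-08). Hspa5, the ER chaperone BiP, rose by 0.49 ± 0.10 and Herpud1, of ER-associated degradation, by 0.59 ± 0.09, while Xbp1 (0.48 ± 0.17) and Dnajb9 (0.33 ± 0.16), targets of the IRE1 branch, did not pass the test (adjusted p = 0.0701 and 0.21).

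Glycolysis genes rose in 5 of 22 cases and fell in 1, and rose in 8 without NC + TGF-β1 replicate 2 (median 0.21). Genes of glucose and lactate transport were among those called. Hk2, hexokinase, rose from 21.98, 21.1 and 16.6 CPM to 50.96, 57.3 and 50.1 CPM (1.41 ± 0.12), the glucose transporter Slc2a1 from 40.7, 48.1 and 43.1 CPM to 77.6, 99.3 and 74.4 CPM (0.93 ± 0.12), and the lactate exporter Slc16a3 from 14.9, 12.9 and 12.1 CPM to 37.98, 24.1 and 46.7 CPM (1.44 ± 0.22). The related lactate carrier Slc16a1 fell from 237, 226 and 235 CPM to 87.2, 64.2 and 101 CPM (−1.46 ± 0.15, adjusted p = 8.47e-06), so the carriers moved in opposite directions. Ldha (0.22 ± 0.08), Pkm (0.20 ± 0.15) and Pfkp (0.23 ± 0.14) did not pass the test (adjusted p = 0.0761, 0.449 and 0.309).

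Mitochondrial pathways differed in the share of members called, beside 8.57% higher and 6.77% lower of all genes tested. The shares were 2.53% and 0% for oxidative phosphorylation and 3.57% and 10.7% for the TCA cycle and pyruvate entry. For fatty acid oxidation they were 4% and 16%. Of 79 nuclear-encoded oxidative phosphorylation genes, 2 were higher and 0 lower by edgeR (median −0.03), and 7 and 5 without NC + TGF-β1 replicate 2 (median −0.0041), with 0 called without NC replicate 3. At an unadjusted p under 0.05, 2 were higher and 5 lower, and DESeq2 called 2 and 1. The 2 were Ndufa4l2 and Uqcrq. The TCA cycle and pyruvate entry had 1 higher and 3 lower of 28 with a median of −0.03 (3 and 6 with a median of −0.15 without treated replicate 2, and at most 1 lower without NC + TGF-β1 replicate 1, NC replicate 1 or NC replicate 2), with Pdha1, a subunit of pyruvate dehydrogenase, lower (−0.38 ± 0.08). Fatty acid oxidation had 1 higher and 4 lower of 25 with a median of −0.18 (2 and 7 without treated replicate 2). Acadm, the medium-chain acyl-CoA dehydrogenase, fell from 52.8, 65.5 and 64.7 CPM to 30.3, 36.2 and 30.2 CPM (−0.92 ± 0.12, adjusted p = 8.9e-05), and Acaa2, a thiolase (−0.72 ± 0.10), while Cpt1a, which brings fatty acids into mitochondria, had −0.21 ± 0.09 (adjusted p = 0.135).

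Cholesterol synthesis and uptake had 9 of 24 members higher and 0 lower by edgeR and by DESeq2 (median 0.27), and 12 and 1 at an unadjusted p under 0.05. Cyp51, the lanosterol demethylase, rose from 377, 319.7 and 328 CPM to 496, 479.5 and 484 CPM (0.51 ± 0.09, adjusted p = 0.00075). Hmgcs1 (−0.00 ± 0.10) and Sqle (0.11 ± 0.08) did not pass the test (adjusted p = 0.986 and 0.468). Fatty acid synthesis and desaturation had 4 higher and 0 lower of 22 by edgeR, 5 and 0 by DESeq2 and 8 and 0 at an unadjusted p under 0.05 (7 higher without NC + TGF-β1 replicate 2, 2 without NC replicate 1 or 3), with a median of 0.19. Acsl3, which activates fatty acids, rose by 0.86 ± 0.10, and Fasn, fatty acid synthase, had 0.20 ± 0.14 (adjusted p = 0.404).

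Genes of xenobiotic and aldehyde metabolism, a known function of club cells, were called lower in 12 of 25 members and higher in 1 (median −0.57, 6.77% of all genes lower). Aldh3a1 (chromosome 11, 61207537 to 61218421), an aldehyde dehydrogenase, fell from 71.2, 84.9 and 89.97 CPM to 16.7, 14.6 and 16.2 CPM (−2.37 ± 0.12, adjusted p = 1.15e-08). Aldh1a1, which makes retinoic acid and is also listed as a club cell marker, fell from 556, 555 and 547 CPM to 245, 231 and 238 CPM (−1.22 ± 0.08), and Cyp2s1, a cytochrome P450 of airways, from 42.96, 39.2 and 48.98 CPM to 13.1, 10.3 and 16.2 CPM (−1.73 ± 0.15). None of these overlapped between groups. The epoxide hydrolase Ephx1 fell (−0.58 ± 0.10). Crabp2, a carrier of retinoic acid, was the member called higher, from 1.06, 1.11 and 0.691 CPM to 6.69, 8.15 and 6.51 CPM (2.88 ± 0.26). Cbr2, another club cell marker, did not pass the test (−0.27 ± 0.22, adjusted p = 0.486). The 8 club cell markers together fell from 875 to 892 CPM in NC to 366 to 475 CPM, mostly through Aldh1a1 and Foxa2. Of the 8, 4 held at most 3 counts in each library.

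Of 33 glutathione and NRF2 target genes, 7 were lower and 1 higher, although the median was 0.05. Without treated replicate 2, 7 were lower and 3 higher, with a median of −0.0044. Gstm1 and Gsta4, glutathione transferases, fell from 322, 316 and 318 CPM to 113, 120.5 and 112 CPM (−1.47 ± 0.10) and from 54.7, 54.7 and 55.7 CPM to 16.6, 12.9 and 18.6 CPM (−1.78 ± 0.13). Osgin1, an oxidative stress gene, fell (−1.67 ± 0.11) and Gclc, of glutathione synthesis (−0.50 ± 0.10). The common NRF2 targets Nqo1 (0.15 ± 0.17) and Hmox1 (0.19 ± 0.27) did not pass the test (adjusted p = 0.633 and 0.729), and Hmox1 split by library, with 112, 54.9 and 111 CPM in NC + TGF-β1.

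Cell cycle genes that were called were lower in nearly every case. Of 48 mitosis and spindle genes, 18 were called lower and 0 higher by edgeR, where 6.77% of all genes were lower, and 43 of the 48 had a negative log2 fold change (median −0.42). At an unadjusted p under 0.05, 30 were lower and 0 higher, and DESeq2 called 20 and 0. Without NC + TGF-β1 replicate 2 the count by edgeR was 24. Nusap1, a spindle protein, fell from 33.3, 37.2 and 43.4 CPM to 17.5, 23.5 and 15.1 CPM (−1.02 ± 0.18, adjusted p = 0.00105), and Cenpf, a kinetochore protein, from 60.6, 62.6 and 74.5 CPM to 37.1, 31.3 and 40.7 CPM (−0.86 ± 0.12). Mki67, which encodes the proliferation marker Ki-67, fell from 43.1, 46.1 and 51.7 CPM to 26.5, 26.8 and 34.7 CPM (−0.68 ± 0.15), and Aurkb, the kinase of the chromosomal passenger complex (−1.47 ± 0.26) on lower counts. The treated libraries of these 4 genes all lay below NC.

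Cdk1, the mitotic kinase, had 28.03, 80.95 and 33.8 CPM in NC + TGF-β1 against 46.1, 44.4 and 50.4 CPM in NC, so that replicate 2 was above and replicates 1 and 3 below NC. Its log2 fold change was 0.02 ± 0.34 (adjusted p = 0.98), and −0.60 without replicate 2 (adjusted p = 0.0986). Ccnb1 (−0.45 ± 0.22) and Plk1 (−0.38 ± 0.13) did not pass the test (adjusted p = 0.206 and 0.0715).

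Promoters of mitotic genes called lower are shown because those genes fell together. They are the 250 bases before the RefSeq start as above, with matches to TTTGAA, the core letters of the cell cycle homology region bound by the MuvB complex, in capitals on either strand. Of the 16 lower members with a sequence, 7 (43.8%) hold the letters, as do 13 of the 41 tested members (31.7%) and 10.7% of the 9943 genes. In Cdc20, an activator of the anaphase-promoting complex that had −0.52 ± 0.09, the match begins 18 bases before the start, and Mki67 has 2 matches, 116 and 98 bases before it, none of them overlapping another motif searched. Cdc20 lies at chr4:118437344-118437593 and Mki67 at chr7:135716380-135716629, both on the minus strand.
Cdc20: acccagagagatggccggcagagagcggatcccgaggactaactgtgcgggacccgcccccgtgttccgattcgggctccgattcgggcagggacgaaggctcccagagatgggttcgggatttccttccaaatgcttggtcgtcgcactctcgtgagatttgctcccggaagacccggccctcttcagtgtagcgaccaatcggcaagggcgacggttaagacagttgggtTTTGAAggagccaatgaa
Mki67: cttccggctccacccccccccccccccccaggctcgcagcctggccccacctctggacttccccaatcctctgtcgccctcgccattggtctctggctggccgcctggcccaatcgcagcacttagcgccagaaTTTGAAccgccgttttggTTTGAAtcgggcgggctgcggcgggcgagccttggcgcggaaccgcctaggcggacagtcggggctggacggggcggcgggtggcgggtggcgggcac

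Of 44 DNA replication and S phase genes, 3 were lower and 0 higher by edgeR. The share called lower, 6.82%, was near the 6.77% of all genes tested. Without NC + TGF-β1 replicate 2, 7 were lower. DESeq2 called 3 lower and 0 higher, and at an unadjusted p under 0.05 there were 8 and 0 (median −0.13). Rpa1, of the single-strand binding complex, fell (−0.67 ± 0.11) and the licensing factor Cdt1 (−0.48 ± 0.08). Mcm2, of the replicative helicase, had 122, 123 and 133 CPM and 128, 144 and 117 CPM (0.04 ± 0.09, adjusted p = 0.854), and Pcna, the sliding clamp, −0.37 ± 0.16 (adjusted p = 0.155).

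Of the G1 cyclins, CDK inhibitors and Myc network, 9 of 27 were lower and 2 higher (median −0.08, −0.13 without treated replicate 2). Ccnd1 (chromosome 7, 144929931 to 144939925), cyclin D1, fell from 1301, 1221 and 1237 CPM to 497, 599 and 469 CPM (−1.26 ± 0.10, adjusted p = 8.5e-07), Ccnd2 (−0.70 ± 0.10) and the activator E2f2 (−1.04 ± 0.12). Cdkn2b, which encodes p15, the CDK inhibitor known as a TGF-β target, rose from 27.1, 34.8 and 26.6 CPM to 44.9, 70.3 and 48.6 CPM (0.89 ± 0.18, adjusted p = 0.00275), and stayed called without replicate 2 (0.66). Cdkn2a, another CDK inhibitor gene, rose by 0.40 (adjusted p = 0.0179), but was not called without NC replicate 1 or 2 (adjusted p = 0.0622 and 0.0881). The other CDK inhibitors named here went the other way or did not pass the test. Cdkn2c (p18) and Cdkn1b (p27) fell (−1.08 ± 0.15 and −0.65 ± 0.13), and Cdkn1a (p21) had 0.14 ± 0.09 (adjusted p = 0.399). The higher members were 1 without NC replicate 1 or without NC replicate 2.

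Of 23 p53 targets, 3 were higher and 5 lower (median 0.03, 0.12 without treated replicate 2), with 2 lower without NC + TGF-β1 replicate 3 and 3 without NC + TGF-β1 replicate 1, NC replicate 2 or NC replicate 3. Gadd45a, a stress and DNA repair protein, rose from 5.63, 8.60 and 6.53 CPM to 30.8, 42.2 and 30.5 CPM (2.32 ± 0.18, adjusted p = 6.49e-07), and Mdm2, which degrades p53, had 0.32 ± 0.14 (adjusted p = 0.14). Apoptosis regulators had 6 lower and 1 higher of 22 (median −0.13), and 7 and 2 without treated replicate 2 (median −0.21). Bcl2 and Bcl2l1, which protect from apoptosis, fell (−1.04 ± 0.13 and −0.71 ± 0.16), and Bcl2l11, which encodes the pro-apoptotic BIM (−0.46 ± 0.08), so that members of opposite function fell.

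**Figure D4:**
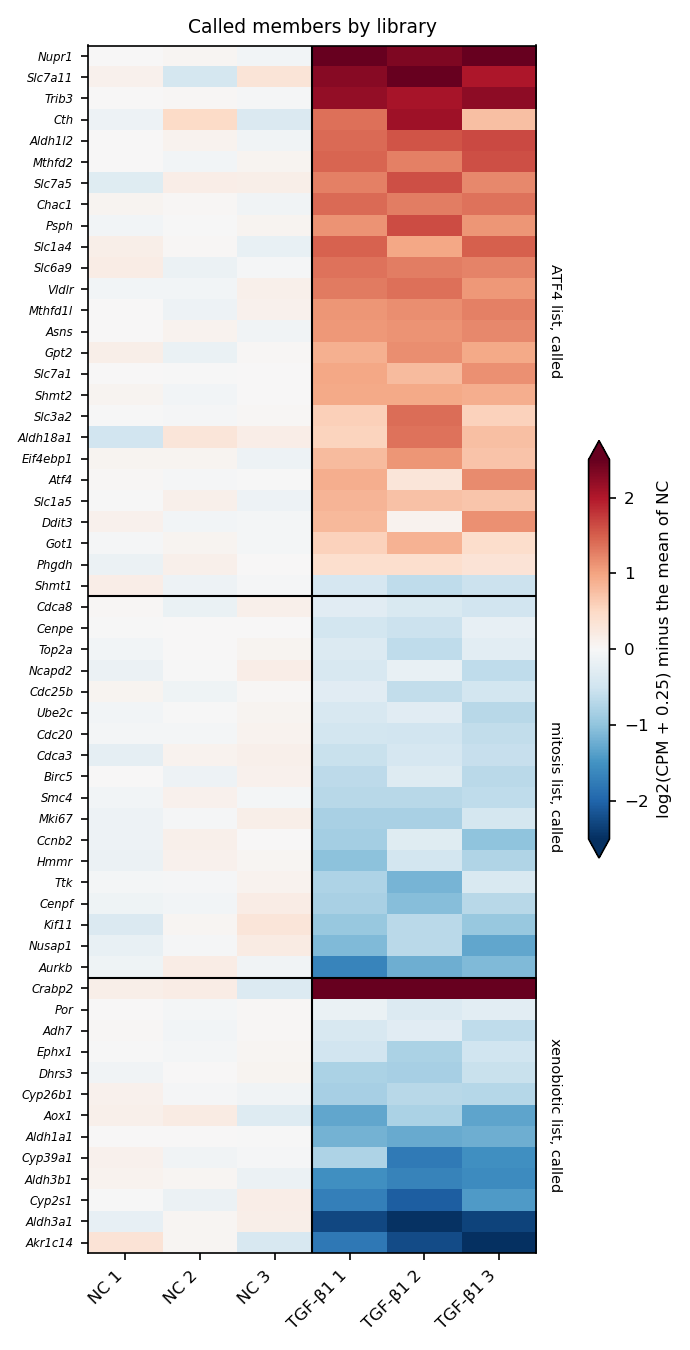
Rows are the called members of the ATF4, mitosis and xenobiotic lists and columns the 6 libraries; the colour is log2(CPM + 0.25) minus the gene's mean over NC, and it saturates at 2.5 in either direction. By the fit 25 of the 26 ATF4-list genes were higher, the 18 mitosis genes lower and 12 of the 13 xenobiotic genes lower, and the treated columns differ in places, as for Ddit3 and Atf4, which are palest in treated replicate 2.

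Ribosomal protein genes had small log2 fold changes. Of 84 cytosolic ribosomal protein genes, 0 were called by edgeR (median −0.02), with 2 lower by DESeq2 and 2 lower at an unadjusted p under 0.05, while 1 was higher and 5 lower without NC + TGF-β1 replicate 2 (median 0.01) and 2 lower with upper-quartile factors. Ribosome biogenesis had 5 higher and 1 lower of 39 (median 0.16), with 9 higher without NC + TGF-β1 replicate 2 and 2 or 3 without each other library of the 6. Npm1, nucleophosmin, was the member called lower (−0.36 ± 0.07). Purine and pyrimidine synthesis had 3 higher and 1 lower of 25 (median 0.07), and 4 and 2 without treated replicate 2 (median −0.10). The higher members were 1 without NC + TGF-β1 replicate 1, NC replicate 2 or NC replicate 3. The shares called higher and lower were 12% and 4% here and 12.8% and 2.56% in ribosome biogenesis. Those of all genes tested were 8.57% and 6.77%.

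Many structural genes rose. Of 33 matrix genes 24 were higher and 4 lower (median 0.69), of 23 contractile and actin-bundling genes 11 and 1 (0.48), of 10 integrins 4 and 1 (0.25), and of 5 keratins 3 higher (1.05). The cell junction list had 4 and 4 of 21 (median 0.17, 0.03 without treated replicate 2). Acta2, smooth muscle actin, rose from 574, 521 and 535 CPM to 1463, 1576 and 1499 CPM (1.48 ± 0.09), and Itgb5, an integrin that binds latent TGF-β with αv, from 150.3, 144 and 144 CPM to 466, 554 and 429 CPM (1.72 ± 0.11). Krt8 rose from 181, 175 and 211 CPM to 505, 431 and 524 CPM (1.36 ± 0.11) and Krt18 by 1.05 ± 0.13, whereas Vim, the mesenchymal intermediate filament vimentin, fell from 1911, 2238 and 2096 CPM to 1129.8, 1689 and 1262 CPM (−0.61 ± 0.14, adjusted p = 0.00585). Tagln (0.56 ± 0.27), Cdh1 (−0.58 ± 0.26) and Cdh2 (−0.10 ± 0.13) did not pass the test (adjusted p = 0.196, 0.167 and 0.696). Of the matrix list, the collagenase Mmp13 and the stromelysin Mmp3 fell (−1.44 ± 0.19, and on few counts −2.53 ± 0.24), while Col1a2 rose from 3.65, 3.49 and 3.61 CPM to 19.98, 32.9 and 21.1 CPM (2.78 ± 0.22).

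Summed markers of some other cell types differed between NC and NC + TGF-β1. The 7 fibroblast markers, which share collagens with the matrix list, took 3749 to 3985 CPM in NC and 7420 to 8041 CPM in NC + TGF-β1, with Tcf21 at 0 counts and Lum at no more than 3. Of the 5 tested, 3 were called higher, all collagens, and Dcn was called lower (−2.08). Pdgfra did not pass the test (−0.35, adjusted p = 0.241). The 5 smooth muscle markers, mostly through Acta2, went from 522 to 575 CPM to 1465 to 1576 CPM, with Myh11 at no more than 3 counts, and the 5 epithelial markers from 676 to 699 CPM to 1242 to 1678 CPM, with Epcam at no more than 3. Krt8 and Krt18 were the only epithelial markers called, and Cdh1 did not pass the test. The 5 basal cell markers went from 10.4 to 12.4 CPM to 169 to 209.7 CPM, through Krt14, while Krt5, Trp63 and Ngfr held at most 3 counts in each library. The ciliated cell markers went from 4.75 to 5.70 CPM to 8.82 to 12.4 CPM, those of alveolar type 1 cells from 437 to 493 CPM to 259 to 409.5 CPM and those of alveolar type 2 cells from 24.6 to 26.7 CPM to 20.1 to 21.9 CPM. Of those tested, 1 ciliated cell marker was called higher and 1 alveolar type 2 marker, Abca3, lower (−0.33, adjusted p = 0.0329). Abca3 was not called in any fit with 1 of the 6 libraries left out (adjusted p from 0.0534 to 0.0989). The 4 alveolar type 1 markers tested had 0 called in either direction. Goblet, neuroendocrine and endothelial cell markers summed to no more than 0.608, 0.816 and 2.45 CPM in any library. Their part in the results was not tested.

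The same treatment in siPdcd5 cells called 1056 genes higher (8.5%) and 946 lower (7.61%). All 12 libraries were fitted together, so the filter, scaling and estimate of spread are shared and the calls are not independent. With the 6 NC and NC + TGF-β1 libraries alone, 1419 genes were called. Of the 1906 genes called in NC, 1316 (69.0%) were also called in siPdcd5 cells, which is 65.7% of the siPdcd5 calls. The direction was the same in 1315 of them. The exception was Tmem158, named here after its values were seen, with 0.45 in NC and −0.38 in siPdcd5 cells, and its call in NC was lost without NC + TGF-β1 replicate 3, NC replicate 2 or NC replicate 3 (adjusted p from 0.0582 to 0.0705). Of the 1906, 1871 (98.2%) had the same sign in siPdcd5 cells, against 73.0% of all genes. The test of the difference between the responses called 0 genes with edgeR, with 638 genes at an unadjusted p under 0.05 and a smallest adjusted p of 0.213, and DESeq2 called 13.

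Counts of the lists in siPdcd5 cells are set beside those of NC, and their differences were not tested. The BMP-SMAD targets had 6 lower and 1 higher (median −1.54), the ATF4 list 21 higher (0.90), mitosis genes 12 lower (−0.33) and xenobiotic genes 10 lower (−0.57). Growth factors with their receptors and binding proteins had 7 higher and 6 lower, where NC had 11 and 4. The unfolded protein response had 15 and 1, where NC had 9 and 1. Feedback inhibitors of ERK had 4 and 2 with a median of 0.10, where NC had 3 and 4. Glutathione and NRF2 targets had 4 higher and 6 lower, where NC had 1 and 7, and TCA cycle genes 1 lower, where NC had 3 lower. The log2 fold change of Id2 was −4.18 ± 0.17 in NC and −3.03 ± 0.17 in siPdcd5 cells. The difference of 1.15 had an adjusted p of 0.407 with edgeR, of 0.0345 without NC + TGF-β1 replicate 2, where Id2 and Lxn were the 2 genes called, and of 0.00415 with DESeq2. Igf1 rose by 2.93 in NC and by 4.40 ± 0.21 in siPdcd5 cells, with an adjusted p of the difference of 0.346 with edgeR and 0.000559 with DESeq2.

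**Figure D5:**
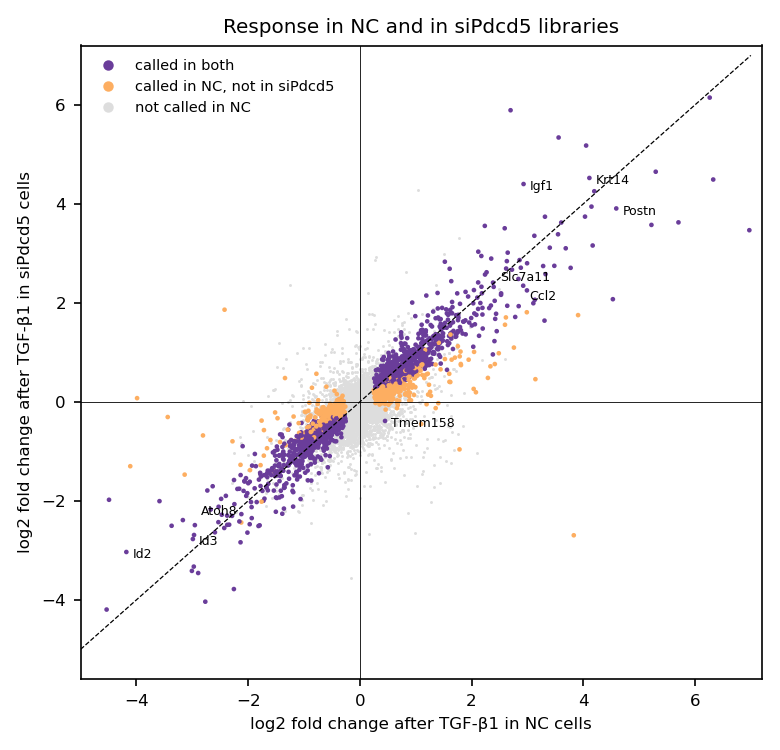
Each point is a gene, with its log2 fold change after TGF-β1 in NC cells (horizontal) and in siPdcd5 cells (vertical), purple where called in both, orange where called in NC and not in siPdcd5 cells and light grey where not called in NC, with the dashed line where both are equal. Of the 1906 coloured genes 1871 lie in the quadrants of equal sign, and Tmem158 is the gene called in both that lies below 0 for siPdcd5 cells and above 0 for NC.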

How the data were processed

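Mouse C22 cells were profiled by 3′ mRNA sequencing (QuantSeq) in 12 libraries, 3 in each of 4 groups taken from the labels. The authors aligned reads with Bowtie2 and used Bedtools to make the deposited counts per gene symbol from unique and multiple alignments (mm10 in the submitters' processing notes). The annotation and the use of strand are not given in the sources used here, and reads shared by near-identical genes may have been counted more than once.

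CPM were computed from the deposited counts and the TMM-scaled library totals. Of 23282 symbols, 12425 passed filterByExpr. Counts were scaled by TMM and tested with edgeR's quasi-likelihood test (edgeR 4.0.16, R 4.3.3) over all 12 libraries, and p-values were adjusted by the Benjamini-Hochberg method with a threshold of 0.05. The square root of the common dispersion was 0.132. Symbols on 44 duplicate rows were kept as separate features. Figures used log2(CPM + 0.25) where a log scale is named. In the 6 libraries 3.95 to 6.48% of counts fell on Rn45s, and 2.06 to 2.90% on Malat1. The test was checked on simulated counts.

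Gene lists, cell type markers and members were chosen with earlier results of these data known, and each list is described by its counts and median, to be read beside the shares of all genes called higher and lower and their median. Named genes were the 12 largest rises and falls among called genes whose log2 CPM averaged 3 or more and whose groups did not overlap, key members of each list with up to 4 of its largest rises and falls, and the markers. Smad9, Cdc20, Tmem158 and members named only to spell out a small count were chosen after their values were seen. Positions are from GENCODE vM21 and promoter sequences from RefSeq (GRCm38.p6), matched by symbol for 9943 of the 12425 genes. Some genes that the rule names are not reported here.

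Alternatives were DESeq2 1.42.0, upper-quartile factors, quantile normalization with limma 3.58.1, other filters, a replicate block, the 6 libraries alone, and each library left out.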

Additional observations from a re-analysis of the deposited data

Results flagged for a closer look

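Tmem158 stood out because it was called in both responses with opposite signs, at 0.45 in NC and −0.38 in siPdcd5 cells. The difference between the log2 fold changes, siPdcd5 minus NC, was −0.84, with an adjusted p of 0.346 by edgeR and a call by DESeq2. The call of Tmem158 in NC was lost without NC + TGF-β1 replicate 3, NC replicate 2 or NC replicate 3 (adjusted p from 0.0582 to 0.0705).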

How the results depend on the processing

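With a minimum absolute log2 fold change of 1, 582 genes were called in NC (325 higher, 257 lower) and 538 in siPdcd5 cells (274 and 264). The count in NC was 2213 with DESeq2, 1941 with upper-quartile factors (945 higher, 996 lower), 1904 with quantile normalization and limma, 1784 without a filter on low counts, 1789 with at least 10 counts in every library and 1419 with the 6 libraries alone. Leaving out Rn45s and Malat1, an alternative chosen after seeing the data, gave 1912. With 1 library left out, between 1390 (without NC replicate 2) and 2558 (without NC + TGF-β1 replicate 2) genes were called in NC, and between 627 (without siPdcd5 + TGF-β1 replicate 1) and 801 were called lower in siPdcd5 cells. The difference between the responses had 13 calls with DESeq2, between 0 and 2 with 1 library left out, the 2 without NC + TGF-β1 replicate 2, and 0 under each other alternative. The cause of these changes was not tested.

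Of the 247 named genes called in NC, 199 were called in each of the 6 fits without 1 library and 48 were not in at least 1 of them. No result changed direction past the threshold under any alternative run. Deviations from the group means correlated between treated and untreated NC libraries of equal number at 0.166, 0.166 and 0.0074, so the numbers were not taken to pair the libraries. With a replicate block 1687 genes were called in NC, 1669 of them shared, 1731 in siPdcd5 cells and 0 in the difference. With 3 libraries a group and 12925001 to 14936109 counts each, genes near 3 counts cannot be told from absent ones, and for genes that miss the threshold a change is not shown to be absent.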

Other observations

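The cytosolic aminoacyl-tRNA synthetases, enzymes that attach amino acids to their tRNAs and a list chosen after the values of the ATF4 list were seen, had 12 of 20 tested genes called higher by TGF-β1 in NC, by edgeR and by DESeq2, and 13 at an unadjusted p under 0.05, with a median log2 fold change of 0.43. In siPdcd5 cells 11 were called higher, with a median of 0.43. The mitochondrial synthetases, which charge tRNAs in the other compartment, had 0 of 17 called in either direction by edgeR and by DESeq2, 1 lower at an unadjusted p under 0.05 in NC, and medians of −0.11 in NC and −0.08 in siPdcd5 cells. The share of all genes called higher in NC was 8.57%.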
